A study of Mus musculus with 20 samples.

Results

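The ETS family of transcription factors was followed in tumor endothelium through 9 of its members: Erg, Fli1, Ets1, Ets2, Elk3, Elf1, Elf4, Etv6 and Gabpa. They were taken by symbol, and all 9 were found among the 55866 genes of the count table. The counts came from 10 Py8119 tumors, a mouse mammary carcinoma line, grown in the mammary fat pad of female C57BL/6J RiboTagEC mice. These mice carry the Rpl22 RiboTag flox allele and the tamoxifen-inducible Cdh5CreERT2 transgene, so that a hemagglutinin (HA) tag is added to ribosomes in cells in which the Cdh5 promoter is active at the time of tamoxifen and in their descendants. The mice of both groups received tamoxifen at 75 mg/kg for 5 days from 3 weeks of age and tumor cells at 8 weeks, and were then given either 6-3-A6, a Notch4-blocking antibody (25 mg/kg), or control mouse IgG, with tumors collected after 10 days. Each of the 5 tumors per group gave 1 homogenate library (input) and 1 anti-HA immunoprecipitate library (IP), 20 libraries in all. Transcripts of tumor cells, leukocytes and fibroblasts belong to the input, and whatever of them is carried along in the IP is measured there too.

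ETS factors bind DNA through a winged helix-turn-helix domain, the ETS domain, that reads a GGAA core within a longer motif. Many genes that define endothelial cells (ECs) have ETS sites in their promoters and enhancers, often next to sites for forkhead, GATA or SOX factors, and several ETS proteins can occupy the same site. Erg maintains EC identity and junctions. Fli1 acts in ECs and in blood cells, and Ets1 and Ets2 are closely related activators that are phosphorylated downstream of Ras and MAP kinases. Elk3 is a ternary complex factor that binds together with SRF, Elf1 and Elf4 are mainly known from lymphoid and other blood cells, Etv6 is a repressor with a Pointed domain, and Gabpa is the DNA-binding subunit of GABP, a regulator of housekeeping and mitochondrial genes.

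The members lie at 7 places in the genome (GRCm39). Fli1 (chr9:32333500-32454157, minus strand) and Ets1 (chr9:32547517-32669116, plus strand) are separated by 93359 bases, and Erg (chr16:95160028-95387452, minus strand) and Ets2 (chr16:95502942-95522095, plus strand) by 115489 bases. These 2 adjacent pairs, in the same head-to-head orientation, are thought to stem from the duplication of an ancestral locus. The other 5 are Elk3 (chr10:93083276-93146997), Elf1 (chr14:79718634-79819934), Elf4 (chrX:47499923-47552009), Etv6 (chr6:134012663-134247121) and Gabpa (chr16:84631813-84660667).

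RefSeq promoter sequences (GRCm38.p6) could be matched to 7 of the 9 members, with 11 annotated starts, and Fli1 and Ets1 were not matched. The 250 bases before a start are shown for 5 of them: those of the first and second start of Erg and of Ets2, the most IP-enriched members with a sequence, that of Etv6, the least enriched, and that of Gabpa. Capitals mark the ETS core, GGAA or its complement TTCC, searched on both strands with overlapping hits allowed.
Erg, first start (chr16:95586594-95586843, minus strand): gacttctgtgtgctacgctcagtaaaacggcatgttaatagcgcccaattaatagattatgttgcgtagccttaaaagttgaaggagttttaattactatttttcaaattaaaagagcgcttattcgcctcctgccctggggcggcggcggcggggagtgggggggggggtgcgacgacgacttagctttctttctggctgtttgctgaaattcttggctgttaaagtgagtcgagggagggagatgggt
Erg, second start (chr16:95530366-95530615, minus strand): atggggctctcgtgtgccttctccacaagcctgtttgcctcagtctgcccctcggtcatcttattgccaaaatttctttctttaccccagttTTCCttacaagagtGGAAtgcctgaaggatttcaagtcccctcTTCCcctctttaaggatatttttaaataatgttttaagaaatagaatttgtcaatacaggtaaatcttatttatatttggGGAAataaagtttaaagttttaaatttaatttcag
Ets2 (chr16:95702157-95702406, plus strand): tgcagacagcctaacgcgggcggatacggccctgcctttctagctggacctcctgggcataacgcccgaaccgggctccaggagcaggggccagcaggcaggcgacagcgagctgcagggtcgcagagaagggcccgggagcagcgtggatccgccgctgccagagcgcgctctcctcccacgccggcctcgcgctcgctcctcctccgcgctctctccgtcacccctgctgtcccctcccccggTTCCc
Etv6 (chr6:134035450-134035699, plus strand): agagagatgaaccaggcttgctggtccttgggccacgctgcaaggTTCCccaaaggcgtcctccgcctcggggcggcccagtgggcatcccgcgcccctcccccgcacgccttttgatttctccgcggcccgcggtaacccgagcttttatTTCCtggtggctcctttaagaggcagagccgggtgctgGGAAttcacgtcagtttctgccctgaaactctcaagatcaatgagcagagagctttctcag
Gabpa (chr16:84834874-84835123, plus strand): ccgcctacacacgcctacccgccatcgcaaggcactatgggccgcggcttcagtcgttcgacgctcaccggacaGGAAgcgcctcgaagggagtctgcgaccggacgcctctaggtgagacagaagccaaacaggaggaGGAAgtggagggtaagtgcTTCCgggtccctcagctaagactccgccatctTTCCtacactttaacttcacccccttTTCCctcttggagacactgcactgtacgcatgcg
The core was present 0 times before the first start of Erg, 4 times before its second start, 1 time for Ets2, 3 times for Etv6 and 5 times for Gabpa. It is a common word, present in 93.4% of the 32851 stretches of that length in the table with a median of 3 per stretch, and 9 of the 11 stretches of the members held it. The longer CCGGAAG, a strong site of many ETS proteins that contains the core, was in 6.91% of all stretches and in 1 of the 11, that of Gabpa.

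Library totals lay between 11881214 and 26728205 counts (median 16942643), and levels are given as CPM (counts relative to a common library total) scaled by TMM factors, so that 3 counts correspond to between 0.112 and 0.252 CPM. The IP raised all 17 endothelial markers over the input (log2 fold change 2.24 to 5.12), while 10 of 12 tested macrophage markers were lower. Macrophage markers were still present in IP, where they summed to between 3625 and 9188 CPM beside 1358 to 8306 CPM for the endothelial markers, with the marker Itgam, almost wholly covered by another gene's span, listed at 0 throughout. Input library 4 of the 6-3-A6 group stood apart from the others, with a median correlation of 0.889 with the other input libraries (0.956 to 0.979 for the rest). In a whole tissue, fewer cells of a type and less RNA per cell cannot be told apart. For the 6-3-A6 libraries, GEO's description names the other fraction than the title, and the titles were followed. In each tumor the library titled IP was the one with more endothelial marker RNA.

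The first question was which members were enriched in the IP over the input. Whether a member without enrichment is translated in ECs was not tested. Erg, Ets1, Ets2 and Fli1 rose in IP with every IP library above every input library, Gabpa, Elk3 and Elf1 rose by less, and Elf4 and Etv6 did not pass the test. Thus 7 of the 9 members were called higher (edgeR, adjusted p under 0.05) and 0 lower, where 19.6% of the 14488 genes tested were called higher, 20.8% lower and 40.4% in either direction. DESeq2 also called 7 higher, with 34.4% of genes called in either direction. Non-overlap with IP on top was seen for 4 members and for 5.02% of all genes.

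Erg, the factor most tied to EC identity, showed the widest gap. In input, control IgG tumors 1 to 5 had 9.69, 8.50, 9.83, 5.18 and 5.15 CPM, and 6-3-A6 tumors 1 to 5 had 7.61, 6.03, 8.48, 19.2 and 11.1 CPM. In IP the control IgG tumors had 355, 165, 370.2, 69.6 and 119 CPM, and the 6-3-A6 tumors had 267, 98.6, 348, 319 and 224 CPM. The highest input library, that of 6-3-A6 tumor 4, was still far below the lowest IP library. Erg was 24.4-fold higher in IP (log2 fold change 4.61, SE 0.34, edgeR adjusted p = 6.69e-10). By log2 fold change it ranked 43 among all genes tested.

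Fli1 started from a higher level in input. Its input values were 62.7, 48.1, 49.0, 60.6 and 78.5 CPM in control IgG tumors and 49.6, 54.3, 71.9, 114 and 77.8 CPM in 6-3-A6 tumors. Its IP values were 186, 187, 278, 122 and 199.6 CPM and 302, 150.4, 297, 355 and 226 CPM, respectively. The groups did not overlap, but the lowest IP library and the highest input library were close, and the log2 fold change was 1.69 (SE 0.19, edgeR adjusted p = 2.72e-07).

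Ets1 and Ets2 lay between Erg and Fli1. Ets1 was measured at 46.1 to 79.6 CPM in the 10 input libraries (median 61.1), and in IP at 313, 295, 391, 193 and 269.9 CPM in control IgG tumors and 297, 293, 519, 604 and 283 CPM in 6-3-A6 tumors. Ets2 was measured at 39.3 to 73.3 CPM in input (median 53.2), and in IP at 179, 182, 259, 148 and 182 CPM in control IgG tumors and 238, 199, 397, 344 and 149.9 CPM in 6-3-A6 tumors. For both genes IP tumors 3 and 4 of the 6-3-A6 group were the highest of all libraries. Ets1 was 5.10-fold higher in IP (log2 fold change 2.35, SE 0.16, edgeR adjusted p = 2.88e-10), and Ets2 3.97-fold (1.99, SE 0.18, adjusted p = 1.49e-08).

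**Figure D1:**
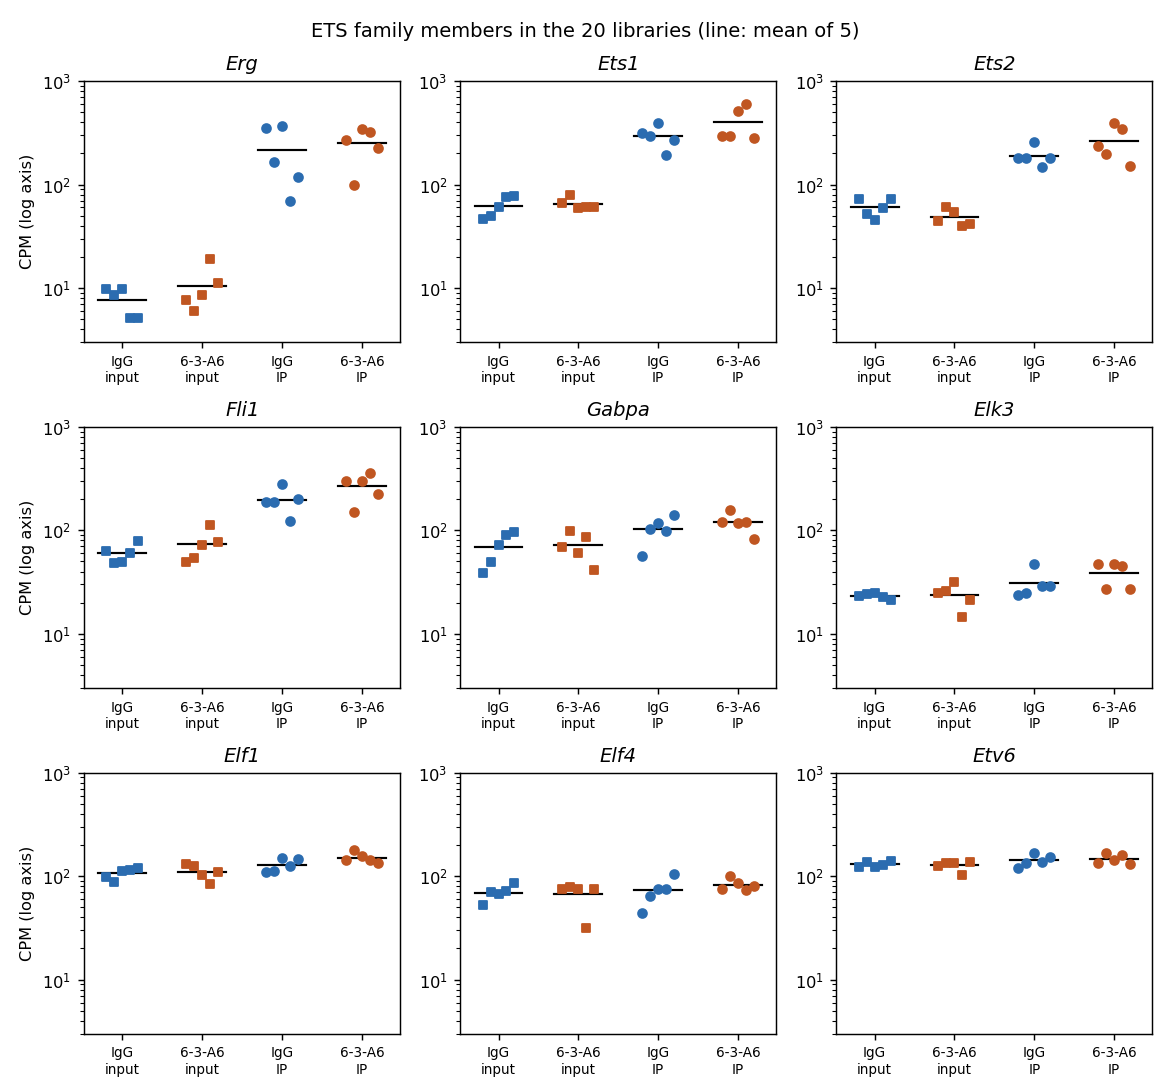
CPM (log axis) of the 9 members in the 20 libraries, one point per library in replicate order, squares for input and circles for IP, with a line at the mean of 5. IP lies wholly above input for Erg, Ets1, Ets2 and Fli1, and the fractions overlap for the other 5.

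In the remaining members the ranges of both fractions overlapped. Gabpa ranged from 38.7 to 97.6 CPM in input (median 70.5) and from 56.6 to 158 CPM in IP (median 118), a log2 fold change of 0.60 (SE 0.19, edgeR adjusted p = 0.0150). Elk3 ranged from 14.5 to 32.0 CPM in input and from 23.7 to 47.4 CPM in IP (0.48, SE 0.15, adjusted p = 0.0142). Its IP libraries fell into 2 sets, with 47.1 CPM in control IgG tumor 3 and 47.2, 47.4 and 44.9 CPM in 6-3-A6 tumors 1, 3 and 4, against 23.7 to 28.8 CPM in the other 6. For Elk3, 30.8% of the span is shared with Cdk17, and reads there may be missing from its count. Of the other members, Fli1 (13.3%) and Etv6 (8.13%) have the largest shares of their span covered by other genes.

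Elf1 rose slightly, from 83.2 to 131 CPM in input to between 109.6 and 177 CPM in IP (log2 fold change 0.30, SE 0.10, edgeR adjusted p = 0.0192). Elf4 had 31.6 to 85.3 CPM in input and 44.4 to 106 CPM in IP (0.13, 95% confidence interval -0.18 to 0.45, adjusted p = 0.495). Etv6 was the steadiest, at 103 to 139 CPM in input and 119 to 167 CPM in IP (0.10, interval -0.08 to 0.28, adjusted p = 0.372). For Elf4 and Etv6 the intervals leave out an increase as large as that of Fli1.

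With the control IgG tumors alone, or with the 6-3-A6 tumors alone, 4 members remained called (Erg, Fli1, Ets1 and Ets2). Elf1 was also lost without 6-3-A6 tumor 3 (adjusted p = 0.0547) and over the tumors whose IP libraries the study kept (adjusted p = 0.130), whereas without 6-3-A6 tumor 4, which holds the input library that stood apart, 7 members were called.

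Within each tumor the IP-to-input ratio gave an order of the members. The mean log2 ratio over 10 tumors was 4.57 ± 0.59 (SD) for Erg, 2.38 ± 0.62 for Ets1, 2.02 ± 0.67 for Ets2, 1.77 ± 0.51 for Fli1, 0.69 ± 0.28 for Gabpa, 0.53 ± 0.51 for Elk3, 0.37 ± 0.21 for Elf1, 0.21 ± 0.40 for Elf4 and 0.16 ± 0.24 for Etv6. The ratio was above 0 in 10 of 10 tumors for the first 7 and in 7 of 10 for Elf4 and Etv6. Of the 36 pairs of members, 31 differed (two-sided exact sign-flip permutation test over tumors, Benjamini-Hochberg adjusted over the pairs; the smallest p it allows is 0.00195).

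The order had 3 steps between neighbours. Erg exceeded Ets1 by 2.19 (adjusted p = 0.00306 by exact permutation), Ets1 exceeded Ets2 by 0.36 (adjusted p = 0.0250), and Fli1 exceeded Gabpa by 1.08 (adjusted p = 0.00306). The step from Ets1 to Ets2 was 0.237 without control IgG tumor 1 (0.237 to 0.432 over the 10 tumors left out in turn, with the call kept), and the mean ratios were 2.23 and 1.65 in control IgG tumors and 2.54 and 2.39 in 6-3-A6 tumors. Ets2 and Fli1 were not separated (adjusted p = 0.196 by exact permutation), and neither were the neighbours from Gabpa down to Etv6 (0.0923 to 0.631). Without 6-3-A6 tumor 4, Elf1 exceeded Elf4 by 0.23 (adjusted p = 0.0100 by exact permutation) and the last pair changed places.

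**Figure D2:**
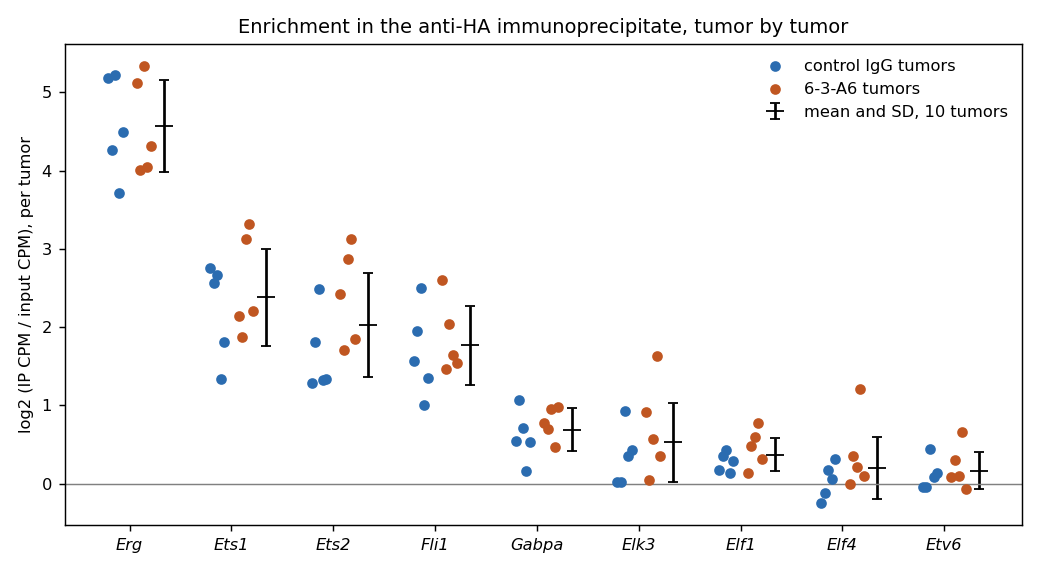
The log2 ratio of IP to input CPM for each of the 10 tumors, with members in order of their mean; bars show the mean and SD. Erg stands at 4.57, Ets1, Ets2 and Fli1 between 1.77 and 2.38, and the other 5 members at or below 0.69.

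Levels can be compared between genes only per length, and they were divided by the summed exon length (GENCODE, GRCm38 annotation). The counting covered whole gene spans, introns included, and may miss reads where genes overlap, so this scale is approximate. In input, Elf1 (25.0 ± 3.66 CPM per kb, SD, n = 10), Etv6 (22.5 ± 1.92) and Fli1 (20.1 ± 6.06) were the highest members, and Erg was the last of 9 (2.62 ± 1.18). In IP, Fli1 (69.4 ± 22.5 CPM per kb), Ets1 (68.1 ± 24.6), Erg (67.4 ± 33.0) and Ets2 (58.6 ± 21.5) came first, with means closer to each other than their SDs. Elf1 (32.3 ± 4.72), Etv6 (25.3 ± 2.94) and Gabpa (22.0 ± 5.61) followed, and Elf4 (12.7 ± 2.81) and Elk3 (8.24 ± 2.48) were the lowest. Erg thus moved from the last place in the homogenate to a level like that of Fli1 and Ets1 in the IP.

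Of the other ETS genes 0 were called higher in IP. Of 17 listed, 10 passed the filter on low counts and 3 were called lower, where 19.6% of all genes tested were called higher and 20.8% lower, so that counts this small lie near the background. The values of these genes had a median log2 fold change of 0.08, with 6 of 10 above 0, beside 0.60 for the 9 members and -0.06 for all genes tested. The lowest were Elk1, a ternary complex factor like Elk3 (-0.75, SE 0.19, edgeR adjusted p = 0.00295), Etv4, a PEA3 factor active in epithelial tumors (-0.61, adjusted p = 0.00172), and Elk4 (-0.44, adjusted p = 0.305). Spi1, the macrophage factor PU.1, was the other gene called lower (-0.43, adjusted p = 0.0457), and it was named for that call. The highest were Erf (0.37), Etv3 (0.25) and Etv5 (0.25), of which 0 were called. Spans of other genes, where reads are lost from the count, cover 51.6% of Elk1 and 66.7% of Elk4.

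The other 7 genes were not tested: Elf5, Spdef, Spib, Spic and Fev had at most 1.06 CPM in any library, and Etv2 and Elf3 were listed at 0 in all libraries. For Elf3 the 0 cannot be read as a level. Its whole span is covered by other genes of the table, and all 12675 genes of that kind were listed at 0. The same holds for Angpt2 and Lyl1 in the lists described next, while Lmo2 is covered over 62.5% of its span.

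Endothelial genes with known ETS sites were high in IP. Of 22 listed, 20 were tested and 18 were called higher, where 19.6% of all genes tested were. Their median log2 fold change was 3.92. Of the tested genes, 11 are also among the endothelial markers by which the IP was judged, so their rise is not a separate result. The highest were Nos3, the endothelial nitric oxide synthase (5.09, SE 0.45, with 90.1% of its span covered by other genes, where reads are lost), Robo4, a guidance receptor of ECs (4.75, SE 0.37), and Tie1, an orphan receptor of the angiopoietin system (4.66, SE 0.39). The lowest were Thbd, or thrombomodulin (0.37, edgeR adjusted p = 0.0987), Mef2c (0.45, adjusted p = 0.0812) and the homeobox gene Hhex (0.88, adjusted p = 0.00159). Erg itself (4.61) lay within the upper range of this list, and Ets1, Ets2 and Fli1 lay below all of its members except Thbd, Mef2c and Hhex.

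Factors that act beside ETS proteins were covered by 2 lists. Of 14 tested partner factors of endothelium 9 were called higher, where 19.6% of all genes tested were. They were led by the SoxF genes Sox18 (5.42, SE 0.30), Sox7 (5.08, SE 0.26) and Sox17 (4.63, SE 0.34). Foxc2 (-0.46, edgeR adjusted p = 0.0518), Nr2f2 (-0.20, adjusted p = 0.242) and Klf4 (-0.15, adjusted p = 0.347) were the lowest. Of 14 AP-1, coactivator and GABP partners 3 were called higher and 2 lower, shares near those of all genes tested (19.6% and 20.8%). Fosl2 (0.82, SE 0.18, adjusted p = 0.00102) and Gabpb1, the partner subunit of Gabpa (0.53, SE 0.14, adjusted p = 0.00577), rose. Fos had 0.71 (adjusted p = 0.0578). Fosl1 (-0.68, adjusted p = 0.00294) and Runx1 (-0.54, adjusted p = 0.00780) fell, and Gabpb2 had -0.05 (adjusted p = 0.789).

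**Figure D3:**
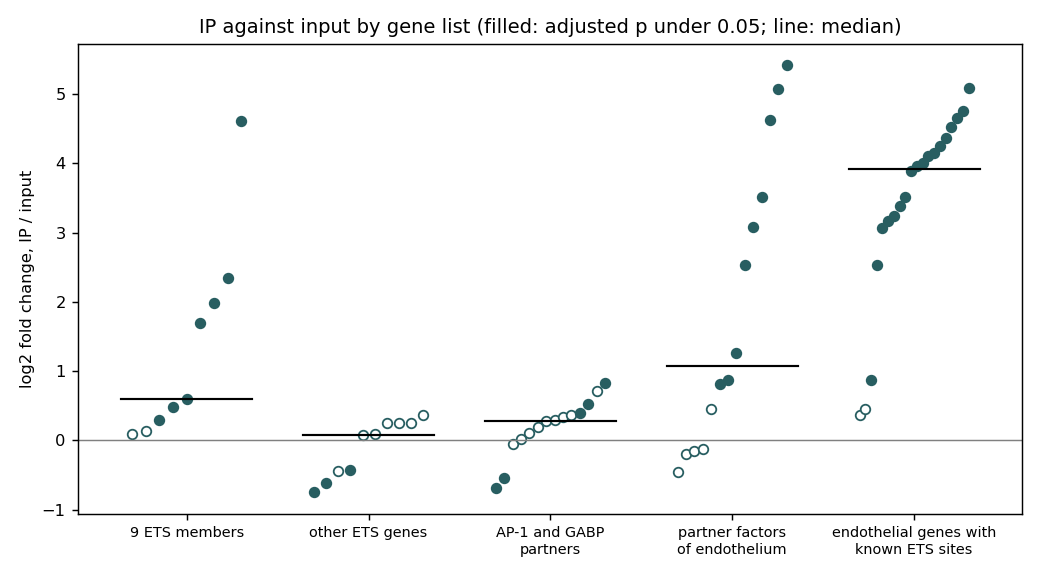
The log2 fold change of IP over input for each tested gene of 5 lists, filled where the adjusted p was under 0.05, with a line at the list's median. The members run from 0.10 to 4.61 with a median of 0.60, the other ETS genes from -0.75 to 0.37, and the genes with known ETS sites have a median of 3.92.

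The next question was whether Notch4 blockade changed the members. Over all 10 IP libraries 0 of the 9 members were called, as were 0 of 13602 genes tested by edgeR and 0 by DESeq2 (unadjusted p under 0.05 in 2.15% of genes and for 0 members). The log2 fold changes of 6-3-A6 over control IgG were 0.21 for Erg, 0.44 for Fli1, 0.43 for Ets1, 0.47 for Ets2, 0.33 for Elk3, 0.22 for Elf1, 0.18 for Elf4, 0.05 for Etv6 and 0.20 for Gabpa. All 9 values were above 0, where the median of all genes was 0.01, and the groups overlapped for each member. In the same fit 0 of 12 macrophage, 0 of 7 mural, 0 of 7 epithelial and 1 of 10 fibroblast markers were above 0 (medians -0.37, -0.46, -0.35 and -0.33), as were 6 of 17 endothelial markers (median -0.08) and 5 of 5 tested lymphoid markers (0.84), with 0 of them called. The lymphoid direction came from 6-3-A6 IP 5, where these markers summed to 140 CPM. They summed to between 18.5 and 21.6 CPM in the other 6-3-A6 IP libraries and between 23.4 and 36.2 CPM in control IgG IP. The part of these marker lists was not tested. The 95% confidence intervals were wide, from -0.74 to 1.17 for Erg and from -0.07 to 1.01 for Ets2. The interval of Etv6 was narrower (-0.27 to 0.37). The value of Erg was -0.00164 without control IgG IP 4, and that of Etv6 was -0.0101 without control IgG IP 1 and -0.00668 without 6-3-A6 IP 2. Leaving out 1 library moved the values of Elf4 to between 0.0374 (without control IgG IP 1) and 0.362 (without control IgG IP 5), and of Gabpa to between 0.0472 and 0.355 (without the same libraries). It moved Ets1 to as low as 0.258 (without 6-3-A6 IP 4), Ets2 to as low as 0.288 (without 6-3-A6 IP 3) and Elk3 to as high as 0.53 (without control IgG IP 3).

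The study kept 6 of these libraries after removing outliers from a principal component plot, namely numbers 2, 4 and 5 of control IgG and numbers 1, 3 and 4 of 6-3-A6. Because they were chosen by measured expression, their comparison is given only beside that of all 10. In these 6 libraries 2 members were called higher, Erg and Elk3, where 2.57% of the 13999 genes tested were called higher and 4.61% in either direction. Every 6-3-A6 library lay above every control IgG library for 5 members (Erg, Fli1, Ets1, Ets2 and Elk3) and for 13.5% of all genes.

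Erg had 165, 69.6 and 119 CPM in the kept control IgG libraries and 267, 348 and 319 CPM in the kept 6-3-A6 libraries. The log2 fold change was 1.37 (SE 0.29, edgeR adjusted p = 0.0285). The 2 control IgG libraries that the study left out, numbers 1 and 3, had 355 and 370.2 CPM, more than any 6-3-A6 library. Numbers 2 and 5 of 6-3-A6, also left out, had 98.6 and 224 CPM. Elk3 had 24.8, 28.8 and 28.8 CPM against 47.2, 47.4 and 44.9 CPM (0.72, SE 0.17, adjusted p = 0.0430). Among the libraries left out, control IgG 1 and 3 had 23.7 and 47.1 CPM for Elk3, and 6-3-A6 2 and 5 had 27.1 and 27.1 CPM.

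The other members with groups apart were Ets2 (log2 fold change 0.90, edgeR adjusted p = 0.0532), Fli1 (0.87, adjusted p = 0.0592) and Ets1 (0.86, adjusted p = 0.115). Elf1 (0.16), Gabpa (0.02), Etv6 (0.01) and Elf4 (-0.11) were near 0, with adjusted p between 0.707 and 0.977. Leaving out 1 library moved Elf1 to between 0.104 and 0.289. DESeq2 called Erg, Fli1, Ets1, Ets2 and Elk3 higher in the same libraries, with 8.3% of genes called in either direction. Leaving out any 1 of the 6 libraries took the call from Erg, Elk3 or both: 0 of these 2 members was called without control IgG IP 4 or 6-3-A6 IP 1, 3 or 4, Erg was called without control IgG IP 2, and Elk3, together with Fli1 (edgeR adjusted p = 0.0439), without control IgG IP 5. The log2 fold changes stayed above 0 where calls were lost, between 1.13 and 1.46 for Erg (edgeR adjusted p from 0.0504 to 0.101) and between 0.68 and 0.79 for Elk3 (adjusted p from 0.0737 to 0.181).

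**Figure D4:**
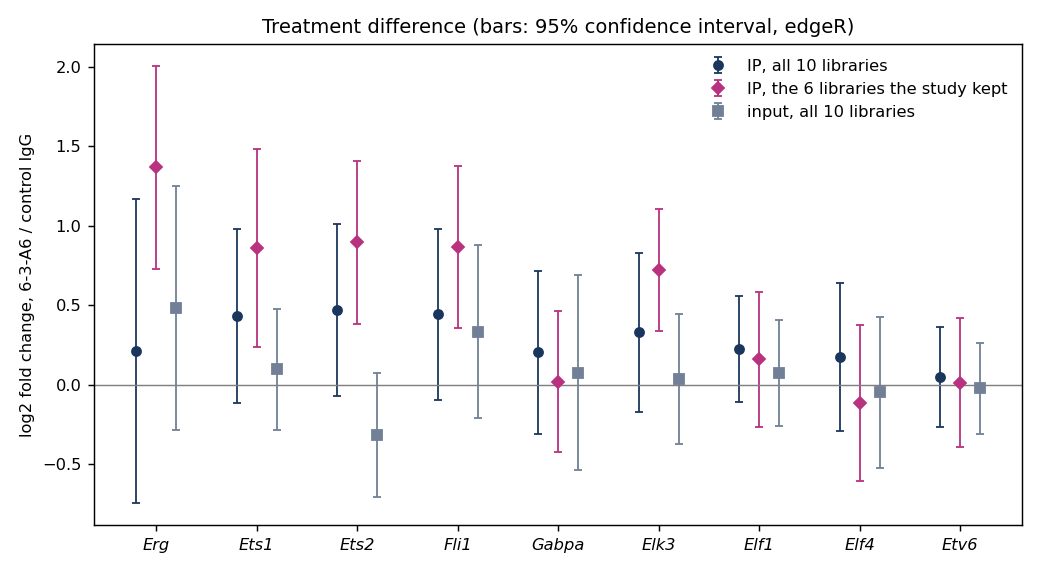
The log2 fold change of 6-3-A6 over control IgG for the 9 members, with 95% confidence intervals from edgeR, in all 10 IP libraries, in the 6 IP libraries that the study kept, and in the 10 input libraries. Erg reaches 1.37 in the kept libraries and 0.21 over all 10, and the intervals of all 10 IP libraries include 0 for every member.

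Markers of several cell types moved with the groups among the kept libraries. The macrophage markers summed to 7926, 8316 and 6933 CPM in the 3 control IgG libraries and to 4174, 3999 and 3625 CPM in the 3 6-3-A6 libraries, without overlap, and 6 of 12 tested macrophage markers were called lower, where 2.04% of all genes tested were called lower. The epithelial markers summed to 341, 398 and 333 CPM against 170, 224 and 253 CPM, and the mural markers (pericytes and smooth muscle) to 176, 161 and 129 CPM against 114, 83.6 and 78.1 CPM, both without overlap. The lymphoid markers summed to 23.4, 30.3 and 36.2 CPM against 21.6, 20.2 and 20.5 CPM, also without overlap. Called lower were 2 of 7 epithelial, 1 of 7 mural, 2 of 10 fibroblast and 0 of 5 tested lymphoid markers. The endothelial markers summed to 6426, 1959 and 3585 CPM against 7449, 5450.2 and 6869 CPM, with overlap and with 3 of 17 called higher. The fibroblast markers summed to 2761, 1421 and 1259 CPM against 1274, 601 and 803 CPM, also with overlap. With the endothelial marker level as a covariate, 0 members were called, Erg having 0.78 (edgeR adjusted p = 0.561) and Elk3 0.87 (adjusted p = 0.388). The part of these marker lists in the values was not tested.

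Some genes of the other lists were called in the kept libraries, where 2.57% of all genes were called higher. With the endothelial covariate 1 gene of all tested was called in either direction, and without 6-3-A6 IP 3 it was 9 genes. Of 14 partner factors 7 were called higher: Sox17 (1.56, edgeR adjusted p = 0.0225), Sox18 (1.51, adjusted p = 0.0204), Gata2 (1.23, adjusted p = 0.0290), Tal1 (1.12, adjusted p = 0.0337), Sox7 (1.10, adjusted p = 0.0445), Hhex (0.97, adjusted p = 0.0250) and Klf2 (0.84, adjusted p = 0.0413). Of 20 genes with known ETS sites 5 were called higher, Egfl7 (1.68, adjusted p = 0.0231) and Nos3 (1.34, adjusted p = 0.0390) beside Gata2, Tal1 and Hhex, which are on both lists. Of their spans other genes cover 49.5% for Egfl7 and 90.1% for Nos3. Notch4 itself, the target of the antibody, had 0.78 (adjusted p = 0.283). None of the other ETS genes or of the AP-1 and GABP partners was called (0 of 10 and 0 of 14). Over all 10 IP libraries these 10 named genes had values between -0.12 (Notch4) and 0.57 (Sox18), and 0 of them were called.

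In input, 0 members and 0 of 13683 genes were called between the treatments by edgeR, and 0 by DESeq2, with an unadjusted p under 0.05 in 1.32% of genes and for 0 members. Erg had 0.49 (95% confidence interval -0.28 to 1.25), Fli1 0.33 and Ets2 -0.31, and the other 6 members lay between -0.05 and 0.10. The value of Erg rested on the library that stood apart: it was 0.10 without 6-3-A6 input 4, and that of Fli1 was 0.08.

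Whether enrichment differed between treatments was tested by the interaction of fraction and treatment, in which 0 of 14488 genes were called by edgeR and 0 by DESeq2 (edgeR unadjusted p under 0.05 in 0.863% of genes). Ets2 had the largest value of the members, 0.79 (95% confidence interval 0.14 to 1.44, unadjusted p = 0.0195 by edgeR, adjusted p = 1.00), with mean log2 IP-to-input ratios of 1.65 ± 0.52 (SD, n = 5) in control IgG tumors and 2.39 ± 0.62 (n = 5) in 6-3-A6 tumors. The other 8 members lay between -0.28 (Erg) and 0.34 (Ets1), all with intervals that include 0. With 1 tumor left out, the value of Ets1 ran from 0.161 to 0.487.

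The IP libraries differed widely in endothelial content, which allowed the members to be set against it. The endothelial marker level, the mean log2 CPM of 17 markers that do not include any ETS gene, ran from 5.62 (6-3-A6 IP 2) and 5.97 (control IgG IP 4) to 8.17 (control IgG IP 1). In a fit over the 10 IP libraries with treatment as a term, Erg rose by 0.87 on the log2 scale per log2 unit of marker level (SE 0.12, edgeR adjusted p = 0.00237) (the markers themselves, which make up the scale, had a median of 0.99). It was 1 of 9 members called, where 2.95% of 13602 genes were called higher and 3.32% in either direction. With 1 library left out, 83 to 748 genes were called, and 1 member was called each time.

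The slope was not called in the other members. It was 0.39 for Fli1 (SE 0.10, edgeR adjusted p = 0.0691; DESeq2 adjusted p = 0.00784), 0.28 for Ets1, 0.21 for Ets2 and 0.19 for Elk3, and below 0 for Etv6 (-0.07), Elf1 (-0.11), Gabpa (-0.22) and Elf4 (-0.24), with adjusted p from 0.273 to 0.684 for these 7. The 95% confidence intervals were 0.59 to 1.14 for Erg, 0.16 to 0.62 for Fli1 and -0.09 to 0.51 for Ets2, and the differences between slopes were not tested. With 1 library left out, Elk3 ran down to 0.0937 (without control IgG IP 3), Elf1 was -0.0542 and Etv6 -0.0185 without 6-3-A6 IP 2, and Elf4 was -0.158 and Gabpa -0.136 without control IgG IP 1. Of 20 genes with known ETS sites 11 are part of the marker mean itself, and of the other 9 the count called with a positive slope was 5. It was 6 of 14 for the partner factors and 0 of 10 for the other ETS genes.

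**Figure D5:**
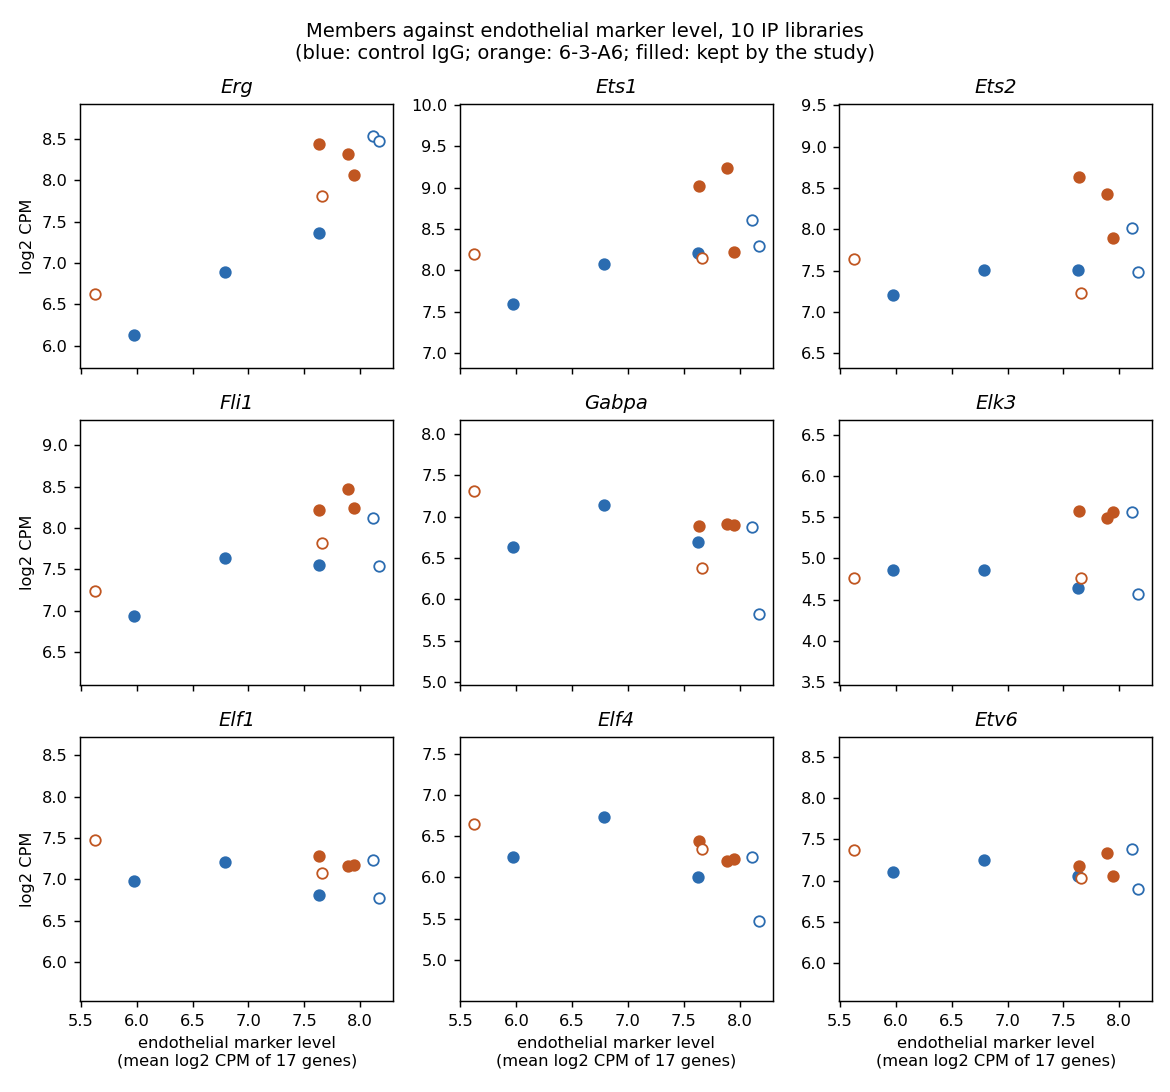
The log2 CPM of each member (vertical axis, drawn to the same scale in each panel) against the endothelial marker level of the 10 IP libraries; blue is control IgG, orange 6-3-A6, and filled points are the libraries the study kept. Erg climbs with the marker level (slope 0.87), and the slopes of Elf1, Etv6, Gabpa and Elf4 run from -0.07 to -0.24.

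Among the 10 IP libraries the members fell into 2 sets by Pearson correlation of log2 CPM. The sets were drawn after the values were seen and are a description, because the 10 libraries share their fraction and differ in endothelial content. Erg, Fli1, Ets1, Ets2 and Elk3 correlated with each other at 0.54 to 0.91, and Elf1, Elf4, Etv6 and Gabpa at 0.66 to 0.85. Between the sets the values ran from -0.45 (Erg and Elf4) to 0.49 (Elk3 and Elf1). Elf4, which is X-linked, and Gabpa (0.85) were the closest pair of the second set, and Ets1 and Ets2 (0.91) of the first.

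The genes most like each member over the 20 libraries were found by the same measure, with the fraction as the main difference between libraries. For Erg they were Hoxb8 (r = 0.99), Meox2 (0.99) and Rbpms (0.99), and for Fli1 Taf9b (0.98), Zfp422 (0.98) and Nostrin (0.97). Ets1 was most like Sh3bp5 (0.99), Kctd12b (0.99) and She (0.98), and Ets2 most like Gnb4, Arhgap31 and Jup (0.98 each). The other 5 members had looser matches. These were Ppp1cc (0.94), Zfpm1 (0.93) and Rin3 (0.92) for Elk3, Cramp1, Dnmbp and Hip1 (0.91 to 0.92) for Elf1, Adar (0.94), Zfp646 (0.94) and Etv3 (0.93), another ETS gene, for Elf4, Sf3a2, Cap1 and Ppp2r5d (0.91 to 0.92) for Etv6, and Otud4 (0.97), Tasor (0.96) and Acap2 (0.96) for Gabpa.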

How the data were processed

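RNA of the input and of the anti-HA IP of 10 tumors was sequenced as single reads of 100 bases. Per the paper's methods and the submitters' processing notes, the authors aligned the reads with STAR 2.7.4a and counted them with featureCounts (2.0.1, with 1.5.2 also named). The deposited counts are raw, and the length given for each of 55789 genes with a single span equals that span, so that intronic reads are included. All 12675 genes wholly covered by other genes are at 0. The notes name mm10 and GRCh38, but the positions in the table are those of GRCm39. The signal columns of the authors' second table are counts divided by size factors, and were used only to find which 6 IP libraries the study kept (100% of genes equal after scaling, tolerance 1e-06). Its fold changes and p-values were not used.

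After filterByExpr had taken out weakly counted genes, edgeR 4.0.16 (TMM, quasi-likelihood F test, Benjamini-Hochberg, threshold 0.05) was run in R 4.3.3 over all genes for IP against input with treatment as a term, for treatment in IP (10 and 6 libraries) and in input, for the interaction, and for the slope on the endothelial marker level. CPM values used TMM-scaled totals, and log2 CPM a prior count of 2. Intervals are at 95%, and the floor of 3 counts covers counting error only. DESeq2 1.42.0, its size factors, no filter, a block, single treatment groups, the endothelial covariate and each library or tumor left out were the alternatives. The block was on the tumor for IP against input and for the interaction, and on the replicate number for treatment. The pipelines were tested on simulated counts.

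The members and gene lists were chosen with earlier results of these data known. The named genes were the 9 members, and from each list the 3 highest and 3 lowest in IP against input and any gene called between treatments. Notch4, Spi1, genes at 0 and other genes not tested (Elf5, Spdef, Spib, Spic, Fev and Lmo2) were named outside this rule. Input and IP of the same number come from 1 tumor, and their deviations correlated at -0.08 to 0.70 (8 of 10 over 0.1). The 40 pairs of libraries within groups differed by more than sampling noise. Per the methods, tumor cells were implanted into 1 mammary fat pad of each mouse. The p-values of the treatment fits, the slope and the pairs of members measure the spread between tumors. The main fits of IP against input and of the interaction had no tumor term. In these, input and IP of 1 tumor entered as separate libraries, so the p-values do not take their pairing into account. Strandedness of the counting is not given in the sources used here.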

Additional observations from a re-analysis of the deposited data

Results flagged for a closer look

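In each of 36 sets of 5 libraries (9 members in 4 groups), the library farthest out was compared with the rest by Dixon's test, which chance passes in about 5 of 100 sets, and 2 were flagged. Elk3 in control IgG IP 3 had 47.1 CPM, against 23.7 to 28.8 CPM in the other 4 control IgG IP libraries and close to 6-3-A6 IP 1, 3 and 4. Elf4 in 6-3-A6 input 4, the input library that stood apart from the rest, had 31.6 CPM, against 74.6 to 78.1 CPM in the other 4 of its group. The cause was not tested for either.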

How the results depend on the processing

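The count of members called higher in IP was 7 with DESeq2, its size factors, no filter and a block on the tumor. The tumor block, which pairs input and IP, called 7394 genes and changed no member's call. The count was 4 in control IgG tumors alone (2163 genes called) and 4 in 6-3-A6 tumors alone (2507) with fewer libraries in the fit. Over the tumors of the kept libraries 3416 genes were called. Between treatments in the kept IP libraries, 5 members were called by DESeq2 (1190 genes) and without the filter (1459), and 0 with the endothelial covariate (1 gene), where Elf4 had 0.0900. Leaving out 1 of these libraries gave 0 to 2 members and 9 (without 6-3-A6 IP 3) to 653 genes; no replicate block could be fitted there because the kept groups share only the number 4. For the slope, DESeq2 called 2 members and 937 genes, and leaving out 1 library gave 83 (without 6-3-A6 IP 2) to 748 genes (without control IgG IP 4). Causes were not tested.

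Values without a call that changed sign when 1 library or tumor was left out ran as follows. In all IP libraries Etv6 ran from -0.0101 to 0.107 and Erg from -0.00164 to 0.486. In the kept libraries Elf4 ran from -0.222 to 0.134, Gabpa from -0.0310 to 0.213 and Etv6 from -0.0455 to 0.0921. In input Gabpa ran from -0.0700 to 0.222, Etv6 from -0.0521 to 0.0197, Elf4 from -0.126 to 0.116 and Elk3 from -0.0848 to 0.153. In the interaction Fli1 ran from -0.0759 to 0.319 and Erg from -0.499 to 0.0332, and the ratio of Elf4 exceeded that of Etv6 by -0.0148 to 0.0766. Numbers shared across treatments did not pair tumors (1 of 5 correlations over 0.1 in each fraction), and the replicate block on them left 0 genes called in all IP libraries and in input.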
